A study of Mus musculus with 2 samples.

Results

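The epidermal growth factor (EGF) receptor family was described here through 8 genes, 5 ligands (Areg, Ereg, Hbegf, Tgfa and Btc) and 3 receptors (Egfr, Erbb2 and Erbb3), found by symbol among the 32285 genes of the deposited matrices. Each symbol matched 1 gene. The data came from tumours of RM-1, a mouse prostate cancer cell line, grown under the skin of C57BL/6 mice, with the genotype labelled WT for both groups. One group received vehicle and the other RP-6306, which inhibits PKMYT1, a kinase that holds back CDK1, and tumours were taken on day 10 of treatment. CD45+ leukocytes were sorted and put back with tumour cells at 3 parts to 1, so the proportion of leukocytes was set by the experimenter. Each group is 1 single-cell library made with the SeekOne DD 3' system, and how many animals stand behind each is unclear, since the design text speaks of a pair of grafted mice in all. The dose, and the age and sex of the animals, are not stated in the sources read for this work. With 1 library per group no test between treatments was possible. Every difference below compares 2 libraries, and the intervals cover counting error only.

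The ligands of this family are made as membrane-anchored precursors and released by ADAM proteases. They bind EGFR, which pairs with itself or with ERBB2 or ERBB3 and signals through RAS and ERK and through PI3K and AKT. Amphiregulin, the product of Areg, is also known as a product of tissue-resident and tumour-infiltrating regulatory T cells, and heparin-binding EGF-like growth factor, the product of Hbegf, as one of macrophages. ERBB2 has no known ligand, and ERBB3 binds neuregulins and has weak kinase activity.

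After filtering, 16082 vehicle cells and 14916 RP-6306 cells remained, with a median of 3115.5 and 2848 UMIs (unique molecular identifiers, each a counted RNA molecule). The 2 libraries shared 374 barcodes. Cells were grouped by clustering without the 8 members or their pathway genes, so that the members did not define the groups. Tumour-like cells numbered 2322 and 2703, with summed keratins 8, 18 and 19 at 1126 and 1116 CPM (counts scaled to a common total) and Ptprc, which encodes CD45, at 5.80 and 3.32 CPM. Krt8 stood at 482 and 504 CPM in them, whereas the prostate luminal genes Pbsn and Hoxb13 had 0 UMIs in either library. Clusters left unnamed held 22.2% of the vehicle cells and 12.5% of the RP-6306 cells and, apart from cluster G10, are not described further.

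Areg, Ereg and Btc lie on chromosome 5 of GRCm38, with Ereg at 91074622 to 91093646, Areg at 91139599 to 91148432 and Btc at 91357261 to 91402994. Egfr lies on chromosome 11 at 16752203 to 16918158. The 250 bases before the start of Areg, Btc and Egfr are shown because Areg was higher, and Btc and Egfr lower, in tumour-like cells of the RP-6306 library. Capitals mark matches on either strand to 4 motifs: CRE (TGACGTCA), AP-1 (TGANTCA), GC box (GGGCGG) and TATA box (TATAAA). The sequences are from RefSeq, build GRCm38.p6, at chr5:91139349-91139598 on the plus strand for Areg, chr5:91402995-91403244 on the minus strand for Btc and chr11:16751953-16752202 on the plus strand for Egfr.
Areg: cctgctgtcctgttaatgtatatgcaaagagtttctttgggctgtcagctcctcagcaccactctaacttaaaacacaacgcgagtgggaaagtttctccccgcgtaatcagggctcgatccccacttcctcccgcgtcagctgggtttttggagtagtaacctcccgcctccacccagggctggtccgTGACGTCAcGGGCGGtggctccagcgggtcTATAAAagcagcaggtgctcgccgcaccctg
Btc: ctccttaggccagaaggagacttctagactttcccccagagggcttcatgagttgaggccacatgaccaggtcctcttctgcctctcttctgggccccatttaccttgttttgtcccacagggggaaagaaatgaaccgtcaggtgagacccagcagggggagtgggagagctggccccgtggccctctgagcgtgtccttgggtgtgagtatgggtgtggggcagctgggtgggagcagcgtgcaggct
Egfr: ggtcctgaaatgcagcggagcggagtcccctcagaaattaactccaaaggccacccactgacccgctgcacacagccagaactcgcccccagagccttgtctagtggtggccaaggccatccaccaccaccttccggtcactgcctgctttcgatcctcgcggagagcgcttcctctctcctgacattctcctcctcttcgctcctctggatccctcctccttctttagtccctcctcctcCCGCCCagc
In the Areg window a CRE began 61 bases before the start, a GC box 52 bases before it and a TATA box 31 bases before it. The Egfr window held 1 GC box, 9 bases before the start, and the Btc window held none of the 4 motifs. Among 32851 RefSeq promoter windows of the same length, 1.55% held the CRE, 6.75% the AP-1 letters, 32.7% the GC box and 12.4% the TATA box. The windows of Areg, Btc and Egfr were 57.2%, 59.6% and 60.8% G or C, against a median of 52.4% over all windows. Of the 8 members, 5 had an entry in the promoter table, and the windows of Tgfa and Erbb2 are not shown. Ereg, Hbegf and Erbb3 had no entry. No window can thus be given for Hbegf, the member that differed more than 1.5-fold between the libraries in tumour-like cells.

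Most RNA of the ligands came from tumour-like cells. They held 78.2% of all Areg UMIs in vehicle cells and 83.5% in RP-6306 cells, and 72.4% and 78.2% of Ereg. For Hbegf the shares were 71.1% and 77.7%, for Tgfa 75.0% and 83.7%, and for Btc 79.2% and 83.8%. Egfr was spread more widely: tumour-like cells held 61.4% and 73.3% of its UMIs, collagen-high cells 19.4% and 14.6%, and a small group low in both CD45 and keratins 12.9% and 4.96%. These shares follow cell numbers, which the sort set, as well as levels. Regulatory T-like cells held 0.695% and 0.117% of Areg UMIs, to which the unnamed cluster G10, which shares some of its leading genes, would add 0.879% and 0.178%, and macrophage and monocyte-like cells 1.20% and 2.0% of Hbegf UMIs.

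**Figure D1:**
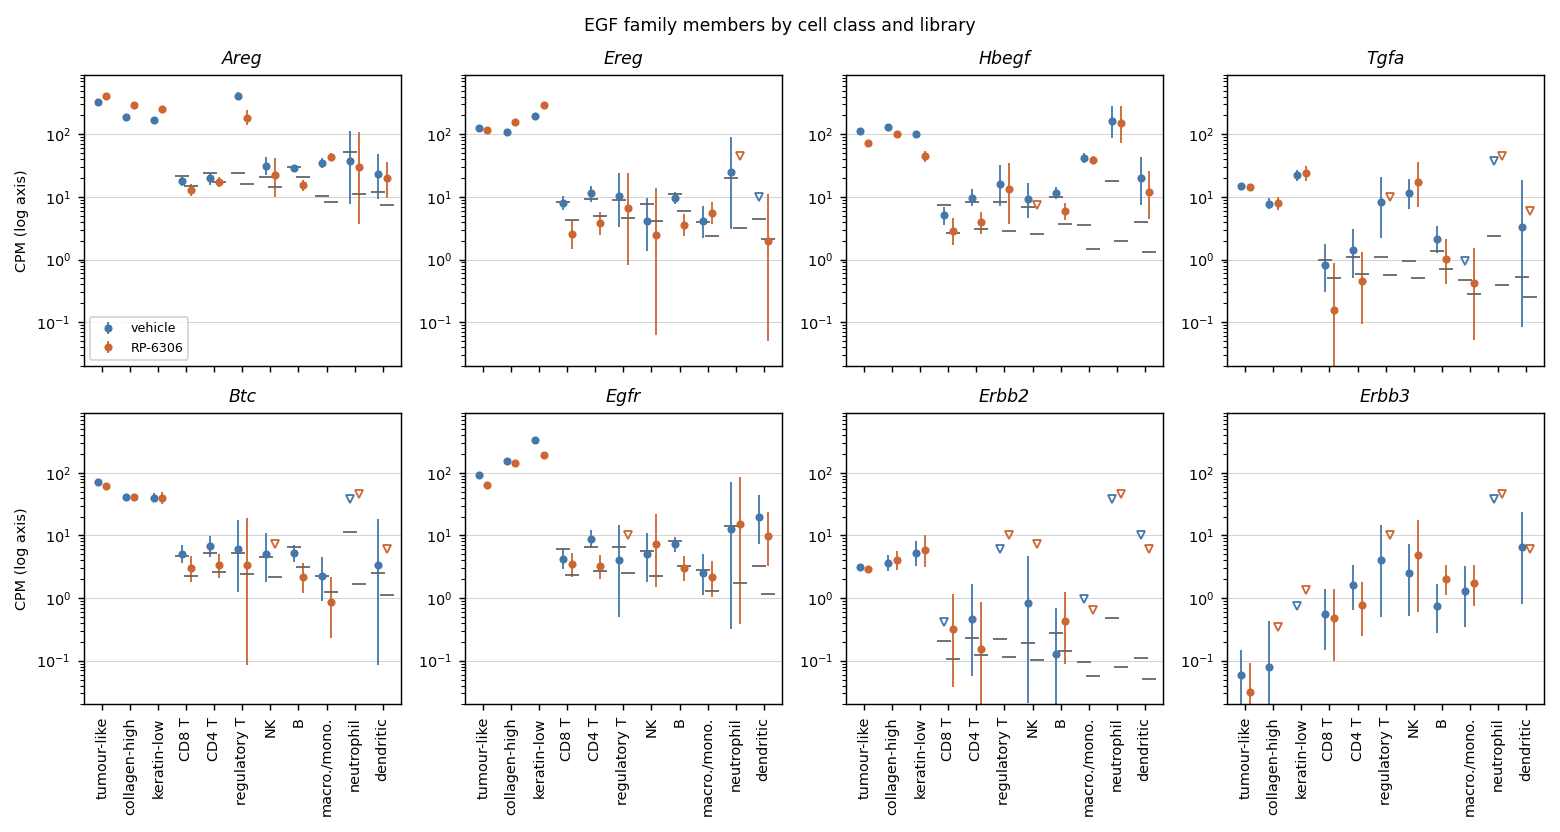
Level of each of the 8 genes (CPM, log axis) by cell class and library; dots are values of 1 library with exact Poisson 95% intervals, grey dashes the level expected from free tumour RNA, and open triangles the floor of 3 counts where no UMI was found. Areg stood at 333 and 414 CPM in tumour-like cells and at 416 and 185 CPM in regulatory T-like cells, while Egfr was highest in the CD45-low, keratin-low cells at 329 and 189.9 CPM.

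Among the ligands in tumour-like cells, Areg was higher with RP-6306 and Hbegf lower. Areg stood at 333 CPM (95% interval 329 to 337) in vehicle cells and 414 CPM (410 to 418) in RP-6306 cells, a log2 ratio of 0.32 (0.29 to 0.34). Hbegf stood at 113 CPM (110 to 115) and 73.2 CPM (71.5 to 74.9), a log2 ratio of -0.62 (-0.67 to -0.58). Hbegf was 1.54-fold lower and was the 1 member of 7 with at least 20 UMIs that passed 1.5-fold. Over all 16806 genes tested in these cells, 2.37% passed 1.5-fold in either direction, 0.809% higher and 1.56% lower in RP-6306, with a median log2 ratio of 0.01.

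The other ligands differed less between the libraries. Ereg, which encodes epiregulin, stood at 125 and 118 CPM (log2 ratio -0.08, interval -0.12 to -0.04). Btc, which encodes betacellulin, stood at 72.1 and 62.3 CPM (-0.21, -0.26 to -0.15). Tgfa, which encodes transforming growth factor alpha, stood at 15.1 and 14.2 CPM, and the interval of its log2 ratio, -0.21 to 0.03, included 0. Reads of Ereg and Tgfa cannot be told apart from those of the overlapping genes Gm19610 and Gm43917 on the other strand, since no source read for this work says whether the counting used strand.

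Among the receptors, Egfr, the receptor of all 5 ligands, had the most UMIs in tumour-like cells, 6245 and 6151. It stood at 90.6 CPM (88.4 to 92.9) with vehicle and 64.7 CPM (63.1 to 66.3) with RP-6306, 1.39-fold lower, at a log2 ratio of -0.48 (-0.54 to -0.44), short of 1.5-fold. Its antisense gene Egfros overlaps it. Erbb2 stood at 3.09 and 2.88 CPM from 213 and 274 UMIs, with an interval of the log2 ratio from -0.36 to 0.16, and it overlaps Mien1. Erbb3 had 4 and 3 UMIs in tumour-like cells, levels of 0.058 and 0.0316 CPM.

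**Figure D2:**
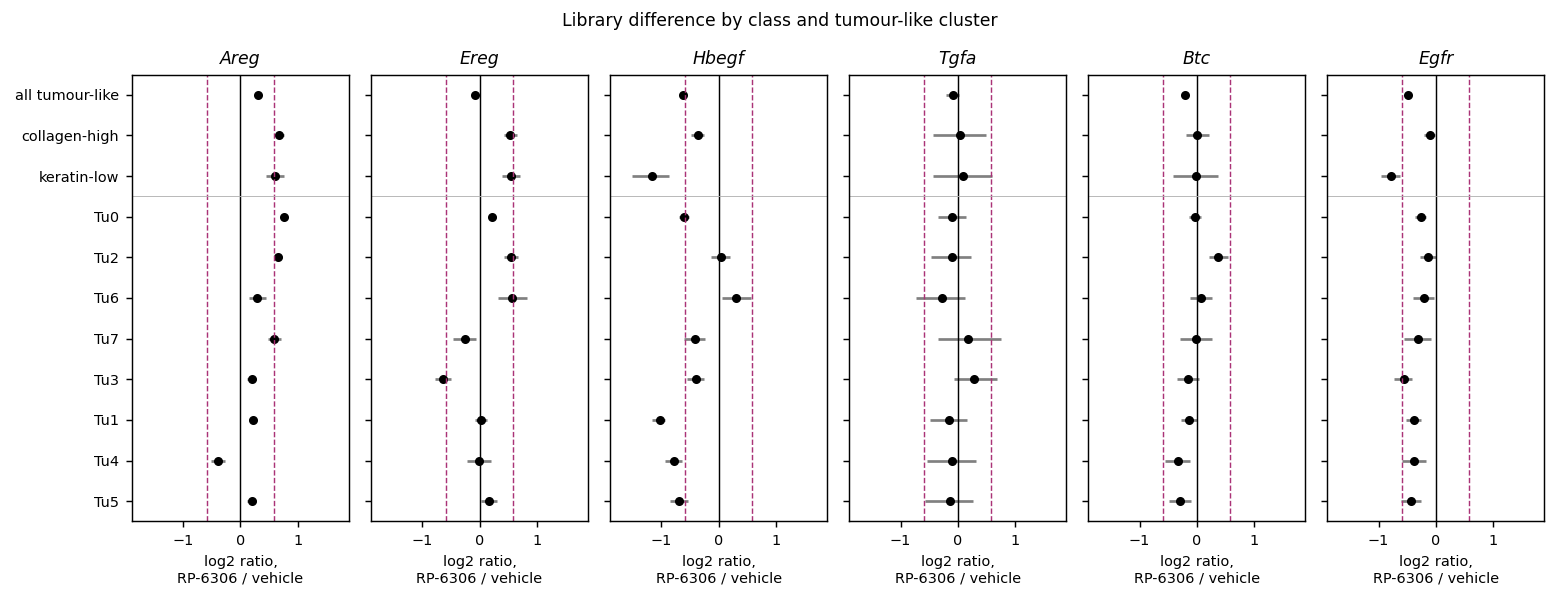
Log2 ratio of RP-6306 over vehicle for 6 genes in tumour-like, collagen-high and keratin-low cells and in 8 tumour-like clusters, with counting intervals; dashed lines mark 1.5-fold. In tumour-like cells Hbegf lies past the lower line at -0.62, Egfr short of it at -0.48 and Areg between the lines at 0.32.

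The expression of ligands differed from cell to cell. To compare shares of cells, each tumour-like cell was thinned to 10000 UMIs, which left out 116 vehicle and 136 RP-6306 cells that were shallower. At that depth Areg was seen in 71.3% and 72.2% of cells, with a median of 2 UMIs per cell in both libraries and a 90th percentile of 9 and 11. The tenth of cells with the most Areg held 42.3% and 43.3% of its UMIs, and for Ereg that share was 53.1% and 55.1%. Hbegf was seen in 55.9% (53.8 to 58.0, exact binomial 95% interval) and 44.2% (42.2 to 46.1) of cells, and Egfr in 52.4% (50.3 to 54.5) and 41.0% (39.1 to 42.9). The share with Hbegf and the share with Egfr were both lower in the RP-6306 library, while the share with Areg was close in the libraries. These intervals are over the cells of 1 library each and say nothing of the spread between animals. Ereg was seen in 46.1% and 44.9% of cells, Btc in 43.9% and 40.0%, Tgfa in 13.7% and 12.7% and Erbb2 in 2.67% and 3.00%.

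At this depth 6.75% of vehicle and 8.30% of RP-6306 tumour-like cells had a UMI of none of the 5 ligands, and 1.59% and 1.13% had all 5. Cells with 2 ligands were the largest class in each library, at 29.1% and 30.5%. Egfr and at least 1 ligand were seen together in 48.7% (46.6 to 50.8) and 37.9% (36.0 to 39.8) of cells. Areg and Ereg were seen together in 36.3% and 36.8% of cells, which was 1.10 and 1.14 times the product of their separate shares. The same ratio was 1.11 and 1.15 for Ereg with Btc and 1.08 and 1.09 for Areg with Btc. An excess of this size was thus not particular to Areg and Ereg. For Areg and Egfr the ratio was 0.98 and 1.02, and for Btc and Egfr 1.03 and 1.12.

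Without thinning, 84.6% of vehicle and 85.8% of RP-6306 tumour-like cells had an Areg UMI. B-like cells, taken as the reference for free RNA, had one in 6.23% and 3.13%. Their median depth was 2164 and 1927 UMIs, against 28661.5 and 33483 in tumour-like cells. With every cell thinned to 2000 UMIs the shares were 37.4% and 39.9% in tumour-like cells and 5.60% and 2.35% in B-like cells.

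Tumour-like cells fell into clusters led by known programmes, and the ligands differed among them. Of 12 clusters, 8 had at least 50 cells in each library. Cluster Tu0 had Serpinb2, Csf2 and Atf3 among its 10 leading genes, and also Ereg and Areg, although these had no part in the clustering. Tu2 was led by the hypoxia and chaperone genes Cryab, Ero1l and Hspb1, Tu6 by Mir100hg and Trim69 and Tu7 by the sterol synthesis genes Hmgcs1 and Idi1. Tu3 was led by the S-phase genes Cdc6 and Ccne1, Tu1 by replication histones, and Tu4 and Tu5 by the mitotic genes Cdc20 and Ube2c. The libraries filled these clusters unequally. Vehicle and RP-6306 cells numbered 656 and 440 in Tu0, 387 and 298 in Tu2, 213 and 156 in Tu6 and 142 and 206 in Tu7. They numbered 188 and 302 in Tu3, 305 and 466 in Tu1, 147 and 327 in Tu4 and 212 and 227 in Tu5. The part of this make-up in the ratios over all tumour-like cells was not tested.

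Areg was highest in Tu0 among these 8 clusters, at 456 CPM with vehicle and 775 CPM with RP-6306. Tu2 followed with RP-6306, at 366 and 580 CPM. In vehicle cells Areg was lowest in Tu6, at 150 CPM, and in RP-6306 cells in Tu4, at 147 CPM. Ereg was also highest in Tu0, at 217 and 253 CPM, and lowest in Tu6 with vehicle, at 44.0 CPM, and in Tu4 with RP-6306, at 58.2 CPM. Over the 12 clusters, libraries summed, Areg and Ereg had a Pearson correlation of 0.73. It is given as a description, since the clusters share libraries and differ in depth, and Tu10 and Tu11 held almost only RP-6306 cells.

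Egfr and Btc had another order. Egfr was highest in Tu6 in each library, at 115 and 98.9 CPM, where Areg and Ereg were low. Btc was highest in Tu0 and Tu6, at 97.8 and 88.2 CPM with vehicle and 95.8 and 92.9 CPM with RP-6306, and lower in Tu7, at 46.3 and 46.0 CPM. The correlation over the 12 clusters was 0.72 for Btc with Egfr and -0.32 for Areg with Egfr. With the summed mitotic genes the correlation was -0.67 for Btc, -0.59 for Erbb2, -0.46 for Tgfa and -0.44 for Ereg. It was -0.41 for Egfr, -0.37 for Areg, -0.06 for Hbegf and 0.51 for Erbb3. The 12 clusters include Tu10 and Tu11, with 3 and 4 vehicle cells against 135 and 77 RP-6306 cells. These correlations can therefore also follow the library.

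**Figure D3:**
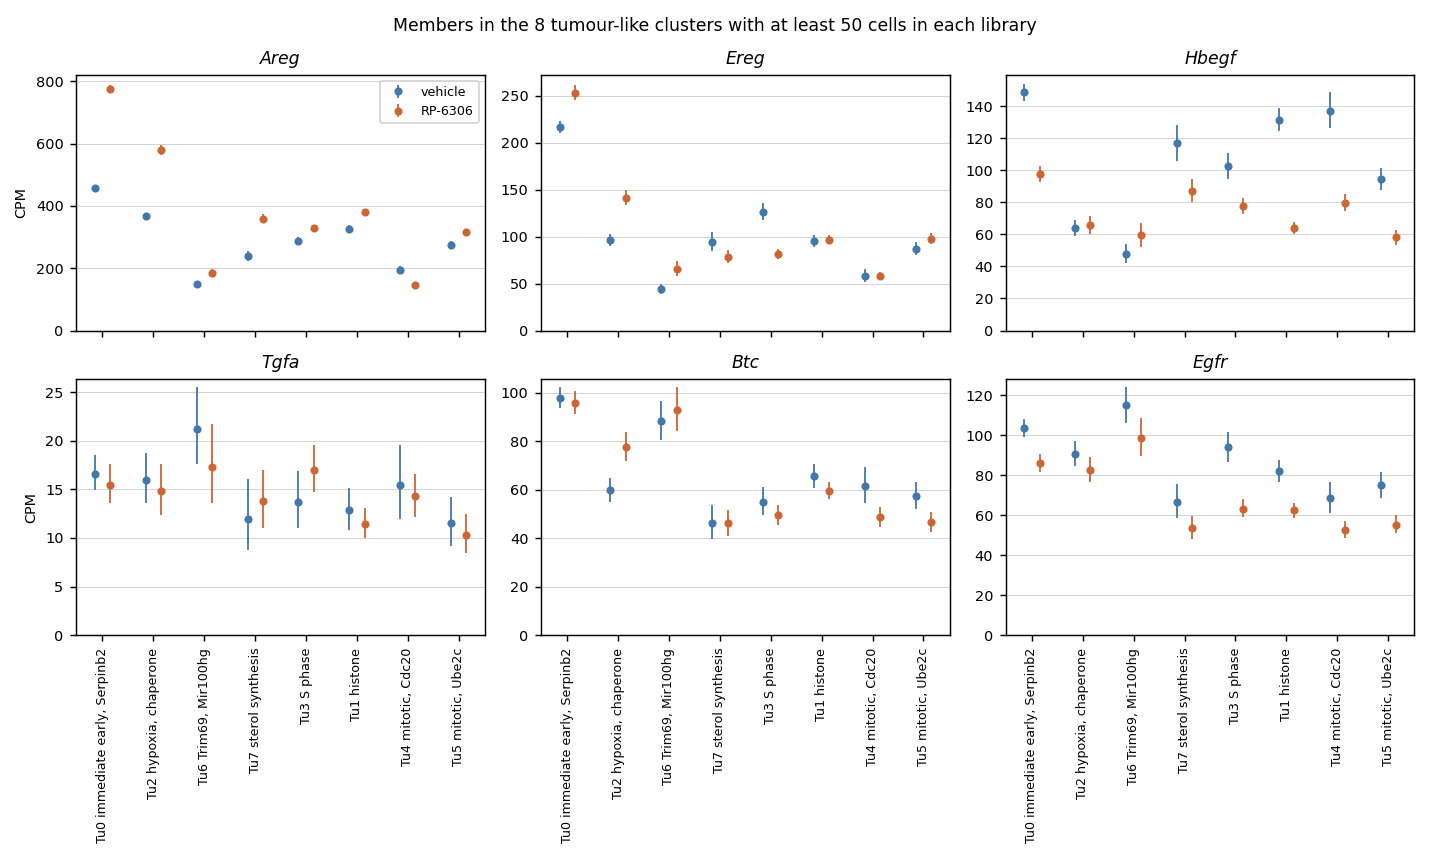
Level (CPM) of 6 genes in 8 tumour-like clusters and each library, with exact Poisson 95% intervals. Areg reached 456 and 775 CPM in cluster Tu0, while Egfr was highest in Tu6 at 115 and 98.9 CPM and lower with RP-6306 in each of the 8 clusters.

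The differences between libraries were not the same in every tumour state. Areg was higher with RP-6306 in 7 of the 8 clusters and past 1.5-fold in Tu0 (log2 ratio 0.76), Tu2 (0.66) and Tu7 (0.59). Over all genes 1.28%, 3.04% and 4.49% were past 1.5-fold upward in these clusters. In the mitotic cluster Tu4 it was lower, 193 against 147 CPM (-0.40, interval -0.52 to -0.28). Hbegf was lower in 6 of the 8 and past 1.5-fold in Tu0 (-0.60), Tu1 (-1.03), Tu4 (-0.78) and Tu5 (-0.69), where 2.61%, 3.02%, 3.54% and 4.01% of all genes were that much lower. In Tu1 it stood at 132 and 63.7 CPM, 2.05-fold lower. Hbegf was not lower in Tu2, at 63.9 and 65.6 CPM, or in Tu6, at 47.8 and 59.4 CPM. Egfr was lower in all 8, with log2 ratios from -0.56 in Tu3 to -0.13 in Tu2, and past 1.5-fold in none.

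Ereg passed 1.5-fold in 1 cluster, Tu3, where it stood at 127 and 81.2 CPM (log2 ratio -0.63), and 3.91% of all genes were that much lower there. Erbb2 passed it in 1, Tu6, on 20 and 28 UMIs, with an interval that included 0, where 3.44% of all genes were that much higher. Btc and Tgfa passed it in none of the 8. Over all genes, the share past 1.5-fold in either direction was 3.89% in Tu0, 5.09% in Tu1, 7.48% in Tu2, 6.57% in Tu3, 7.2% in Tu4, 6.92% in Tu5, 7.98% in Tu6 and 7.43% in Tu7. Clusters Tu10 and Tu11, led by Cdh5, held 3 and 4 vehicle cells against 135 and 77 RP-6306 cells, so they may be that library rather than a state. In RP-6306 cells Areg stood at 539 CPM in Tu10 and 384 CPM in Tu11, and Egfr at 34.4 and 22.0 CPM. Without these clusters the Egfr log2 ratio was -0.42.

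A list of 12 immediate early and stress genes, which answer to handling as well as to growth factors, moved with some of these levels. Its summed level in tumour-like cells was 3836 CPM with vehicle and 2725 CPM with RP-6306. It was lower with RP-6306 in 7 of the 8 clusters, from 5097 to 3614 CPM in Tu0, for example, and higher in Tu6, 581 against 790 CPM. Over the 12 clusters, which include Tu10 and Tu11 of almost only RP-6306 cells, the correlation with this sum was 0.53 for Areg. The correlation was 0.62 for Ereg and 0.36 for Hbegf. It was -0.01 for Egfr, -0.24 for Btc, -0.56 for Tgfa, -0.45 for Erbb2 and 0.02 for Erbb3. In 6 of the 8 clusters Areg was higher and the sum lower with RP-6306. Hbegf and the sum were both lower in 6 of the 8 and both higher in Tu6. The part of these genes in the differences of Areg, Hbegf and Egfr was not tested.

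**Figure D4:**
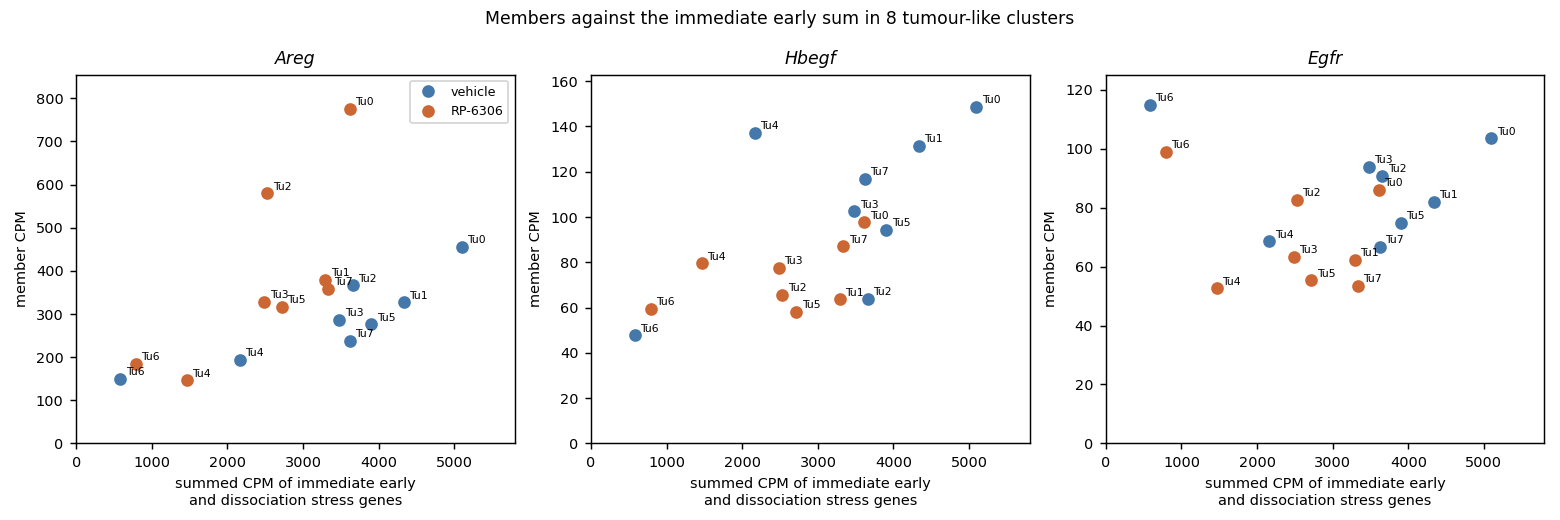
Level (CPM) of Areg, Hbegf and Egfr against the summed level of immediate early and stress genes, 1 point per tumour-like cluster and library. In cluster Tu0 the sum was 5097 CPM with vehicle and 3614 CPM with RP-6306, while Areg stood at 456 and 775 CPM.

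A pair of other CD45-low groups held family RNA. Collagen-high cells numbered 672 and 439 and had 60.8% and 49.9% of the keratin level of tumour-like cells. In them Areg stood at 187 and 298 CPM (log2 ratio 0.67, interval 0.59 to 0.76), the 1 member past 1.5-fold, where 7.41% of all genes passed it and 4.27% did so upward. Ereg stood at 107 and 157 CPM (0.54), Hbegf at 131 and 101 CPM (-0.37) and Egfr at 155 and 143 CPM (-0.11). Areg and Ereg were thus higher and Hbegf and Egfr lower in the RP-6306 library. The 9 fibroblast markers summed to 591 and 1283 CPM in these cells, with none at 0 in either library, against 260 and 243 CPM in tumour-like cells, and their part in the Areg difference was not tested.

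The CD45-low, keratin-low group numbered 302 and 172 cells and was led by Neat1, Sdk1 and Magi1. Its keratin level was 15.6% and 19.7% of that of tumour-like cells, its Ptprc level 45.5 and 43.4 CPM, and its median mitochondrial share 3.01% and 3.39%, against 1.18% in tumour-like cells of each library. Egfr was higher here than in any other class of each library, at 329 CPM (311 to 347) with vehicle and 189.9 CPM (172 to 209) with RP-6306. Ereg was also highest here, at 197 and 289 CPM. Of the 7 members with at least 20 UMIs, 3 passed 1.5-fold, where 21.1% of all genes did, 13.5% higher and 7.56% lower. Egfr (log2 ratio -0.79) and Hbegf (102 and 44.7 CPM, -1.17) were lower and Areg (168 and 256 CPM, 0.60) higher. The fibroblast markers summed to 450 and 1047 CPM, with Col1a2, Lum and Postn at 0 in vehicle cells. The endothelial markers summed to 191 and 120 CPM, with Cldn5 at 0 in either library and Kdr, Emcn and Tek at 0 in RP-6306 cells. The part of both marker lists in the levels of the members was not tested.

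In most leukocytes the levels were near what free tumour RNA would give. Droplets carry RNA released from other cells, and the keratin level of a class, as a share of that in tumour-like cells, was used to estimate the level of each member expected from it. In CD8 T-like cells Areg stood at 17.7 and 12.9 CPM, where 21.9 and 15.1 CPM were expected. In CD4 T-like cells it stood at 19.8 and 17.5 CPM against 24.4 and 17.5 CPM expected, and in B-like cells at 28.6 and 15.4 CPM against 29.8 and 20.8 CPM. Egfr in B-like cells stood at 7.22 and 3.05 CPM, with 8.13 and 3.26 CPM expected.

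**Figure D5:**
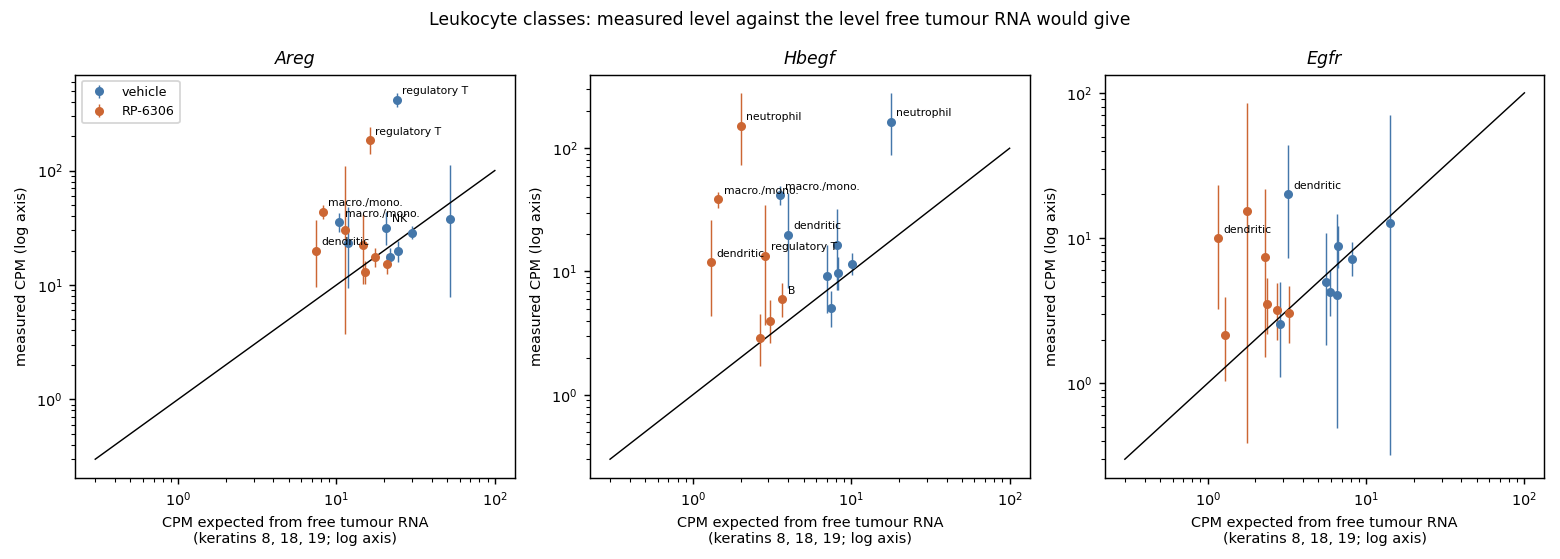
Measured level (CPM) of Areg, Hbegf and Egfr in leukocyte classes against the level expected from free tumour RNA; classes are labelled where the 95% interval lies above the expectation. For Areg, regulatory T-like cells stand at 416 and 185 CPM where 24.1 and 16.2 CPM were expected, and macrophage and monocyte-like cells at 35.3 and 43.8 CPM where 10.4 and 8.21 CPM were expected.

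Most members with enough UMIs in T-like and B-like cells had lower levels in the RP-6306 library. Of 23 pairs of a member and a class with at least 20 UMIs, 15 passed 1.5-fold, 14 lower and 1 higher in RP-6306. CD8 T-like cells had 3 (Ereg, Hbegf and Btc), where 8.77% of all genes passed and 5.96% were lower. Different clusters held most of these cells, T1 with 207 and 1566 cells and T2 with 1429 and 172. CD4 T-like cells had 4 (Ereg, Hbegf, Btc and Egfr), where 11% passed and 6.92% were lower, and most of their cells lay in T0, with 167 and 1984 cells, and T3, with 1193 and 183. B-like cells had 6 lower, Areg, Ereg, Hbegf, Tgfa, Btc and Egfr, and 1 higher, Erbb3 on 6 and 14 UMIs, where 10.2% of all genes passed, 7.8% lower and 2.36% higher. Regulatory T-like cells had 1, Areg, which was lower, where 26.8% of all genes passed and 13.3% were lower. NK-like cells had none of 2, where 18.8% passed. Areg there, on 38 and 9 UMIs, was short of 1.5-fold but passed lower under several alternative settings. Keratin levels, as a share of those in tumour-like cells, were also lower in RP-6306, 1.81 times in CD8 T-like, 1.74 times in CD4 T-like and 1.78 times in B-like cells. They were 1.85 times lower in regulatory T-like cells, and 1.76 and 1.58 times lower in NK-like and in macrophage and monocyte-like cells, where no member passed. Their part in the differences was not tested. After subtraction of the level expected from keratins, 4 of the 15 pairs still passed 1.5-fold. These were Ereg and Egfr in CD4 T-like, Areg in regulatory T-like and Erbb3 in B-like cells. In CD4 T-like cells the intervals of both genes included the expected level in each library. Ereg with vehicle stood at 11.4 CPM (8.43 to 15.1) where 9.19 CPM were expected. Egfr with vehicle stood at 8.84 CPM (6.25 to 12.1) where 6.64 CPM were expected. The subtraction was chosen after seeing the data, and the part of free tumour RNA in these differences was not tested. For Erbb3 in B-like cells only 0.0052 and 0.0016 CPM were expected, so the subtraction could hardly change it. A further 3 passed only after the subtraction, Egfr in CD8 T-like, Tgfa in NK-like and Ereg in macrophage and monocyte-like cells. All 3 were higher in RP-6306, on little evidence. Egfr in CD8 T-like cells stood at 4.25 and 3.51 CPM (2.20 to 5.31 in RP-6306), where 5.96 and 2.36 CPM were expected. Tgfa in NK-like cells had 14 and 7 UMIs. In macrophage and monocyte-like cells 1 cell held 76.9% of the 26 Ereg UMIs of RP-6306.

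Regulatory T-like cells were the leukocyte class with the highest Areg level in each library. Areg stood at 416 CPM (361 to 478) in 162 vehicle cells and 185 CPM (140 to 241) in 102 RP-6306 cells, from 204 and 55 UMIs. Free tumour RNA would give 24.1 and 16.2 CPM by the keratins, and 46.5 and 29.9 CPM by a wider set of 12 epithelial genes. An Areg UMI was found in 26.5% and 15.7% of cells, and in 23.4% and 15.4% after thinning to 2000 UMIs, above the 5.60% and 2.35% of thinned B-like cells. The median depth was 2810.5 and 2380.5 UMIs. Cluster G10, of 485 and 178 cells, also had Ctla4, Il2ra and Ikzf2 among its leading genes but was left unnamed: its B cell markers summed to 3786 and 3591 CPM, against 137 and 155 CPM in the regulatory T-like class, and its median depth was 4937 and 4663 UMIs. In G10 Areg stood at 101 and 95.3 CPM, with Foxp3 at 31.6 and 29.5 CPM. In the vehicle library the regulatory T-like level was above that of tumour-like cells, 416 against 333 CPM, with intervals that did not overlap.

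The log2 ratio of RP-6306 over vehicle for Areg in these cells was -1.16 (-1.63 to -0.73), where 26.8% of all genes passed 1.5-fold and 13.3% were lower. In the RP-6306 library 1 cell held 45.5% of the Areg UMIs, and without the top cell of each library the log2 ratio was -1.81. With G10 added to the class, an alternative chosen after seeing the data, Areg stood at 151 and 118 CPM, a log2 ratio of -0.36 that was short of 1.5-fold. The class joined 2 clusters in unequal parts. Cluster T11, with Gzmb, Klrg1 and Rora among its leading genes, made up 148 of the vehicle cells and 39 of the RP-6306 cells, and T13, led by Il2ra and Izumo1r, 14 and 63. Areg stood at 445 CPM (385 to 510) and 281 CPM (204 to 377) in T11, and at 78.4 CPM (39.1 to 140.2) in T13 of RP-6306. The RP-6306 value in T11 rests on few cells, since 1 of them held 56.8% of its UMIs. How far the mixture of T11 and T13 enters the class difference was not tested.

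Type 2 innate lymphoid cells also make amphiregulin, and their markers were checked. In T11 the 8 markers of that list summed to 2339 and 2528 CPM. Among them Rora stood at 902 and 683 CPM and Klrg1 at 326 and 460 CPM, and effector regulatory T cells also express both. Gata3 stood at 116 and 121 CPM and Il1rl1 at 52.6 and 63.8 CPM. Il5 was at 0 in each library, and Il13 had 0 and 1 UMIs. Foxp3, the defining factor of regulatory T cells, stood at 195 and 217 CPM in T11. Of the 43 vehicle and 16 RP-6306 regulatory T-like cells with an Areg UMI, 14 and 10 also had a Foxp3 UMI, and 38 and 12 had a Cd3d, Cd3e or Cd3g UMI. As shares, 32.6% and 62.5% of cells with an Areg UMI had a Foxp3 UMI, against 41.2% and 33.7% of those without one. Mast cell and basophil markers summed to 8.16 and 0 CPM in the class.

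Macrophage and monocyte-like cells carried Hbegf and Areg above the level expected from free tumour RNA. Hbegf stood at 41.7 CPM (34.9 to 49.5) in 483 vehicle cells and 38.4 CPM (33.0 to 44.5) in 499 RP-6306 cells, where 3.54 and 1.45 CPM were expected. The interval of its log2 ratio, -0.45 to 0.22, included 0. Areg stood at 35.3 and 43.8 CPM, with an interval from -0.03 to 0.66. Of 3 members with at least 20 UMIs none passed 1.5-fold, where 17.4% of all genes did. A Hbegf UMI was found in 18% and 19.2% of cells, and in 7.69% and 5.51% after thinning to 2000 UMIs, against 2.32% and 1.01% of thinned B-like cells.

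Within these cells, cluster M1, with Lyz2, Il1b and Mmp12 among its leading genes, had Areg at 44.6 CPM (27.3 to 68.9) in 45 vehicle cells and 116 CPM (98.7 to 136) in 120 RP-6306 cells. Hbegf in M1 stood at 71.4 and 61.8 CPM. The immediate early sum in M1 was 3504 and 5215 CPM, and its part in the Areg values was not tested. With fewer than 50 vehicle cells, M1 was below the minimum for a comparison, so its values are a description. In other clusters single cells set the level: 1 cell held 55.6% of Areg UMIs in vehicle cells of M5, and 1 cell held all 20 Ereg UMIs in RP-6306 cells of M9. Erbb2 had 0 UMIs in macrophage and monocyte-like cells of either library, which allows a level of up to 0.955 and 0.644 CPM at 3 counts.

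Other leukocytes gave few UMIs. Neutrophil-like cells, 47 and 40 in number, had Hbegf at 165 CPM (87.6 to 281) and 153 CPM (73.2 to 281) on 13 and 10 UMIs, and 1 cell held 90% of the RP-6306 UMIs. The summed immediate early genes stood at 8977 and 12970 CPM in these cells, far above the 3836 and 2725 CPM of tumour-like cells, and their part in the Hbegf level was not tested. Tgfa in NK-like cells stood at 11.7 and 17.3 CPM on 14 and 7 UMIs, where 0.939 and 0.502 CPM were expected. Gamma delta T-like cells had 10 Hbegf UMIs in 53 vehicle cells and none in 19 RP-6306 cells. Egfr in dendritic-like cells had 6 and 5 UMIs, all of them in M12, a cluster led by Siglech with 14 and 7 cells. Erbb3 had 45 and 40 UMIs over all cells of each library, of which B-like cells held 6 and 14 and macrophage and monocyte-like cells 4 and 8.

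Of the other EGF family genes, the neuregulin Nrg1, a ligand of ERBB3, had its highest level in macrophage and monocyte-like cells, at 271 CPM (253 to 289) and 225 CPM (212 to 239). In tumour-like cells it stood at 12.7 and 7.34 CPM (log2 ratio -0.72, interval -0.94 to -0.65), the 1 gene of 6 measured in its list past 1.5-fold, where 2.37% of all genes passed. It did not pass with cells thinned to 2000 UMIs or with a pseudocount of 10 CPM. Egf stood at 0.522 and 0.589 CPM in tumour-like cells, and Erbb4 had 15 and 22 UMIs.

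In tumour-like cells, where 2.37% of all genes passed 1.5-fold, none of the genes measured from 5 lists of sheddases, inhibitors and downstream pathways did. At that share few calls are to be had from lists of this size, so nothing particular to these lists is read from it. Of 8 sheddases and partners, none passed 1.5-fold, and their median log2 ratio was -0.01 against 0.01 over all genes. Adam10, which releases betacellulin, stood at 254 and 224 CPM, and Adam9 at 34.1 and 39.4 CPM. Of 11 measured receptor inhibitors and ubiquitin ligases none passed it. Cbl, which ubiquitinates activated EGFR, stood at 43.3 and 53.3 CPM (0.29), and its relative Cblb at 125 and 103 CPM (-0.27).

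None of 16 genes of the adaptor, RAS and ERK list passed 1.5-fold, with a median of 0.06, nor did any of 9 genes of the PI3K and AKT list, with a median of -0.02. Hras stood at 38.7 and 43.9 CPM, Shc1 at 41.7 and 47.0 CPM and Akt1 at 26.5 and 32.1 CPM. Of 16 genes that ERK signalling is known to induce, none passed 1.5-fold, and 10 were higher and 6 lower in RP-6306, with a median of 0.06. Egr1 stood at 402 and 295 CPM (-0.45), Myc at 15 and 11.5 CPM (-0.36), Ier3 at 696 and 860 CPM (0.30) and Fosl1 at 169 and 198 CPM (0.23).

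The genes most like each member in level were sought over 21 points, 12 tumour-like clusters and 9 leukocyte classes, among 10956 genes. Correlations at this scale mostly follow the difference between tumour-like cells and leukocytes and carry no p. For Areg they were Dst, Dusp14 and Ryk, with Pearson correlations of 0.94, 0.94 and 0.93. For Hbegf they were Hk2, F3 and Lekr1 (0.95, 0.93 and 0.92), for Ereg Ahnak2, Plat and Akr1b8 (0.98, 0.98 and 0.97) and for Btc Col5a3, Nhsl1 and Rundc3a (0.99 for each). For Egfr they were Timp1, Gstm2 and Efna5 (0.98, 0.96 and 0.96), for Tgfa Pkp2, Podxl and Ccdc9b (0.95, 0.95 and 0.94), and for Erbb2 Fhod3, Arhgef25 and Zfp57 (0.97 for each). Erbb3, on few UMIs, had Acot11, Alpk2 and Adap1 (0.94, 0.92 and 0.91).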

How the data were processed

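The values are UMI counts per gene and cell, in whole numbers, that the authors deposited as 1 filtered matrix per library. Cell Ranger (2.1.1) and mm10 are named per the submitters' processing notes, with no role, strand setting or removal of free RNA stated. The filters below leave out shallow cells, and free RNA, if not removed, can add to low levels.

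Cells with at least 500 UMIs, 300 genes and at most 15% mitochondrial UMIs were kept. Scrublet's own threshold called 0 doublets in each library, which was not taken as usable, so the top 6% of its scores was removed instead. Library totals were 135415063 and 158073632 UMIs. Cells were clustered with scanpy 1.11.5 and leidenalg 0.10.2 on 2000 variable genes and 30 components at resolution 1, without the members and pathway genes, and classes were named from marker lists. Summed counts per class were scaled to CPM with exact Poisson 95% intervals from scipy 1.17.1. Log2 ratios used CPM plus 1, and their intervals are of the ratio without that addition. A gene passed with at least 1.5-fold and 20 UMIs over both libraries, in classes of at least 50 cells in each. Shares of cells have exact Clopper-Pearson intervals. Free tumour RNA was estimated from keratins 8, 18 and 19. The ratio step was tested on simulated data.

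Of the gene IDs, 32158 of 32285 matched GENCODE M21, from which positions were taken. All 8 members are named. From each pathway list up to 4 measured genes with the largest absolute log2 ratio qualified for naming, and for likeness the 3 highest correlations. The members, lists and markers were chosen with earlier results of these data known. The alternatives tried are in the closing section.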

Additional observations from a re-analysis of the deposited data

How the results depend on the processing

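Of 137 alternative values for single members, 119 moved by less than their counting interval, 18 moved further, none reversed a difference past 1.5-fold, and 131 kept their sign. Ranges of the log2 ratio in tumour-like cells were -0.64 to -0.56 for Hbegf, -0.59 to -0.42 for Egfr and 0.29 to 0.40 for Areg. For Areg in regulatory T-like cells the range was -1.81 to -0.36, the last with the unnamed cluster G10 added. Tgfa and Erbb2, at few UMIs, reached 0.44 and 0.26 with cells thinned to 2000 UMIs.

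Of the members, 1 passed 1.5-fold in tumour-like cells, and 0 with a pseudocount of 10 CPM. With tumour-like, collagen-high and keratin-low cells as 1 class, an alternative chosen after seeing the data, 2 passed, Hbegf and Egfr. In leukocytes 15 pairs passed, but 3 with a pseudocount of 10 CPM, 32 with no minimum of UMIs, 4 with a minimum of 100 UMIs and 7 (3 of them not among the 15) after subtraction of free tumour RNA, the last also chosen after seeing the data. Areg in NK-like cells, not among the 15, passed lower in several alternatives, such as no doublet removal or resolution 0.5. Of the pathway genes 1 passed, Nrg1, and 0 with a pseudocount of 10 CPM or with thinned cells. The class with the highest level was the same for 5 of the 8 members in the vehicle library alone. Areg was then highest in regulatory T-like cells. Hbegf changed because the 47 neutrophil-like cells fell below the minimum of 50 cells, and Erbb3 because no class had enough UMIs. At resolution 0.5 the collagen-high class was not formed.

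No paired analysis was possible because each group is 1 library, so no test can be made. Low UMI numbers limit Erbb2, Erbb3 and every member in neutrophil, NK, gamma delta T and dendritic-like cells.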
